A study of Homo sapiens with 48 samples.

Results

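IRF2, IRF3, RFX5, RELA and IFITM3, 5 of the 327 genes measured in a pooled CRISPR knockout screen, regulate or respond to interferon, major histocompatibility complex (MHC) expression and NF-kB signalling. The 5 genes were picked by name, for these roles, with earlier results of the same tables known, so their changes against initial cells are given as a description. Differences between groups are made from the same values, so their p-values are not independent of that choice. The screen was run in SCC13 and A431, lines from human skin carcinomas, and in CAL27, a line from a tongue carcinoma, all 3 made to express the nuclease Cas9. Guide RNAs to the library genes were delivered by lentivirus, cells were selected with puromycin, and guide abundance was compared between later and initial cells. The later groups were 16 SCC13 tumors, 10 CAL27 tumors, 2 CAL27 cultures, 8 A431 tumors and 2 A431 cultures, and each of these 5 groups had 2 initial samples. Cultures were grown for 3 weeks and tumors were taken after about 2 months. SCC13 cells were injected into NOD.Cg-Prkdcscid Il2rgtm1Wjl/SzJ mice, and CAL27 and A431 cells into SHO mice. Both hosts are immunodeficient, and the mouse strain cannot be told apart from the line in any comparison of SCC13 with the other lines. Each line was 1 Cas9-expressing population, and whether any tumors came from the same mouse is not stated in the labels.

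Interferon regulatory factors are transcription factors that bind a shared GAAA-containing motif. IRF3 is activated by sensors of cytosolic nucleic acids and switches on interferon-beta, while IRF2 binds the same class of site, where it can repress interferon-induced genes and also sustain expression of some MHC class I genes. RFX5 is the DNA-binding subunit of the factor that, with the coactivator CIITA, drives MHC class II genes. RELA is the main activating subunit of NF-kB, and IFITM3 is an interferon-induced membrane protein that restricts virus entry. MHC molecules are read by T cells and by natural killer cells. Mice with the Prkdc scid mutation lack T and B cells, and loss of Il2rg also removes natural killer cells.

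By the GENCODE annotation of GRCh37, all 5 genes lie on the minus strand. IRF2 lies on chromosome 4 (185306856 to 185395712), IRF3 on chromosome 19 (50162826 to 50169132), RFX5 on chromosome 1 (151313116 to 151319802), RELA on chromosome 11 (65421070 to 65430561) and IFITM3 on chromosome 11 (319676 to 329475). Guide sequences were not analysed here, so where in each gene the guides cut is not given. The promoter of IFITM3 is shown because it carries the motif that IRF factors bind, written GAAA, any 2 bases, GAAA and searched on both strands. It is the 250 bases before the RefSeq start on the minus strand at chr11:320861-321110 of GRCh38.p14, a different build from that of the gene positions, and the capitals mark the 2 matches.
IFITM3 promoter: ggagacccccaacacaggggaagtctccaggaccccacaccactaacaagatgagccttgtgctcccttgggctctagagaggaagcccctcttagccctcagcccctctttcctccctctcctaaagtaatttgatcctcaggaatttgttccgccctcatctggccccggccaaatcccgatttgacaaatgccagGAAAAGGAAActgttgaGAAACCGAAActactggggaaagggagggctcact
Of the members, IFITM3, RFX5 and RELA matched a promoter in the RefSeq table, with 6 windows in all, and 3 of the 6 windows held the motif. It was found in 3.02% of 35116 such windows of the genome. A match is a match of letters in this window and not a measured binding site.

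The deposited values are log fold changes of each gene against the initial cells, with the non-targeting guides at 0 in every column. Because no source used here gives the log base, differences are in log units and no folds are computed. The median of the 327 genes was subtracted within each column, and a centred value below 0 is read as loss of the knockout relative to the median gene. This direction is not written in the tables. The median gene itself lay between -2.67 and 0.53 log units from the non-targeting guides in SCC13 tumors, between -1.50 and -0.56 in CAL27 tumors, at -0.49 and -0.47 in CAL27 cultures, between -0.55 and -0.07 in A431 tumors, and at -0.37 and -0.36 in A431 cultures. The SD over genes was 1.89 to 2.87 in SCC13 tumors, 1.09 to 2.23 in CAL27 tumors, 0.57 and 0.59 in CAL27 cultures, 0.42 to 1.34 in A431 tumors and 0.50 and 0.51 in A431 cultures. SCC13 tumor 3 stood apart, with the only median above 0 among the SCC13 tumors. Tumors and cultures are numbered here by the order of the value columns, which carry no replicate numbers. The tables hold no read counts, so depth is unknown.

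Across the 5 settings the members did not move as a block. IRF3 knockouts stood above the median gene in tumors of each line, IRF2 knockouts did so in CAL27 tumors, RFX5 knockouts stood above it in SCC13 tumors and below it in A431 tumors, and IFITM3 knockouts had means below it in each of the 5 groups. In limma fits across all 327 genes, at a Benjamini-Hochberg adjusted p under 0.05, 2 of 5 members were higher in SCC13 tumors (IRF3 and RFX5) and 1 was lower (IFITM3), where 23.5% and 23.9% of all genes were called in these directions. In CAL27 tumors 2 were higher (IRF3 and IRF2) and 1 lower (IFITM3), against 18.7% and 22.0% of all genes. In CAL27 culture 1 was lower (RELA) and 0 higher, against 18.7% and 4.89%. In A431 tumors 1 was higher (IRF3) and 2 lower (RFX5 and RELA), against 7.95% and 11.9%. Leaving out A431 tumor 1 or A431 tumor 4 left 1 call among the members in A431 tumors. In A431 culture 1 was lower (IFITM3) and 0 higher, against 11.3% and 2.14%. The members were chosen with these values known, and nothing is read from these counts.

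**Figure D1:**
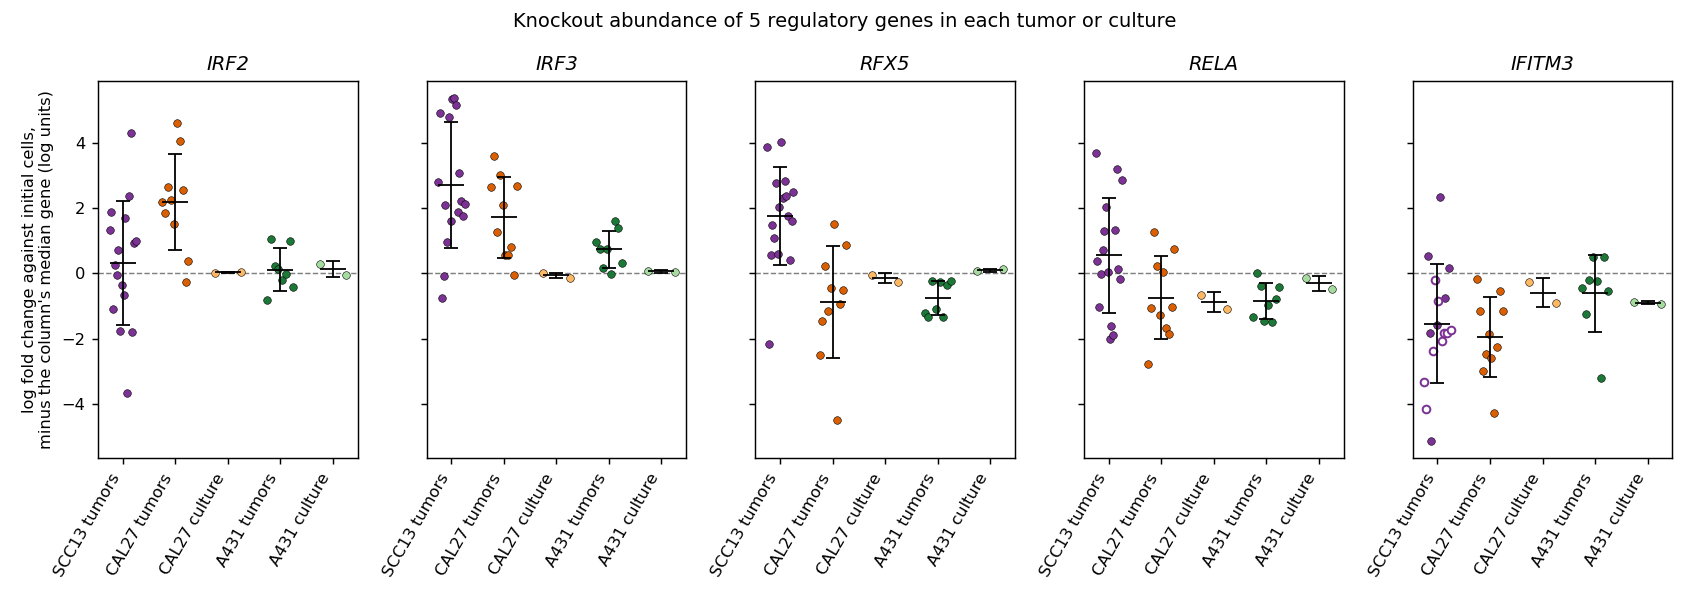
Log fold change against initial cells minus the column's median gene, in log units, for the 5 genes. Each point is 1 tumor or culture, the bar and whiskers are the mean ± SD, and the open points of IFITM3 in SCC13 tumors are the 9 values at the floor described for that gene. IRF2 is highest in CAL27 tumors, with a mean of 2.19, and RFX5 lies above 0 in 15 of 16 SCC13 tumors and below 0 in 8 of 8 A431 tumors.

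IRF2, a repressor and activator of interferon-responsive promoters, had the 8th highest mean of all 327 genes in CAL27 tumors. There its values ran from -0.26 through a median of 2.21 to 4.62 log units, above the median gene in 9 of 10 tumors (mean 2.19 ± 1.48, SD, n = 10). CAL27 tumors 6 and 7 were highest, at 4.62 and 4.08, and tumors 9 and 10 were lowest, at -0.26 and 0.37. The CAL27 cultures stood at 0.02 and 0.05, and 9 of 10 tumors lay above both. Relative to the non-targeting guides, the CAL27 tumors averaged 1.37 ± 1.34, with 8 of 10 above 0, and the CAL27 cultures stood at -0.45 and -0.44. In SCC13 tumors IRF2 ran from -3.66 through 0.48 to 4.31, with 9 tumors above the median gene and 7 below. In A431 tumors it ran from -0.82 through 0.07 to 1.05, with 4 above and 4 below, and the A431 cultures, at 0.30 and -0.04, lay within that range. The means therefore ran from CAL27 tumors at the top (2.19) through SCC13 tumors (0.32), A431 culture (0.13) and A431 tumors (0.12) to CAL27 culture (0.03), and the 4 lower means differed by less than the SD of the SCC13 tumors.

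IRF3, the nucleic acid-responsive activator of interferon-beta, was among the 15 highest means in tumors of each line and near the median gene in culture. In SCC13 tumors it ran from -0.76 through 2.17 to 5.39 log units, above the median gene in 14 of 16 (mean 2.71 ± 1.94, SD, n = 16). SCC13 tumors 2, 7, 9, 10 and 11 lay between 4.81 and 5.39, and the other tumors at or below 3.08. In CAL27 tumors IRF3 ran from -0.05 through 1.69 to 3.60, above it in 9 of 10 (mean 1.73 ± 1.24, SD, n = 10), and the CAL27 cultures stood at 0.0022 and -0.13. In A431 tumors it ran from -0.03 through 0.76 to 1.61, above it in 7 of 8 (mean 0.75 ± 0.57, SD, n = 8), and the A431 cultures stood at 0.09 and 0.03. In CAL27 9 of 10 tumors lay above both cultures, and in A431 7 of 8 did, with A431 tumor 5 below both. Against the non-targeting guides IRF3 averaged 1.09 ± 1.50 in SCC13 tumors (12 of 16 above 0), 0.91 ± 1.31 in CAL27 tumors (7 of 10) and 0.47 ± 0.59 in A431 tumors (6 of 8).

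The IRF3 values come with a feature of the tables that the other 4 members lack. In CAL27 culture 1 its deposited value was identical to those of 9 other genes, and in A431 culture 2 to those of 8 other genes, 13 different genes in all. In tumors no value of IRF3 was shared. These 13 genes, which include the peptide hormone precursor ADM, the tropomyosin TPM2, the keratin KRT6A and the homeobox factor IRX3, also stood high in tumors, where about as many genes lie above the median gene as below it. In SCC13 tumors 13 of the 13 had means above the median gene and their median was 1.33, in CAL27 tumors 12 of 13 with a median of 1.19, and in A431 tumors 11 of 13 with a median of 0.56. In CAL27 culture 11 of the 13 had means above the median gene, against 51.4% of all genes, and their median was 0.0018. In A431 culture 10 of the 13 did, against 52.0% of all genes, and their median was 0.04. The 13 genes were found by sharing a value of IRF3 in culture, 0.0022 or 0.03 log units from the median gene. Culture medians near 0 therefore follow from how the genes were picked, and nothing is read from the contrast with tumors. The exceptions in tumors were CD151, a tetraspanin partner of integrins, at -1.40 in CAL27 and -2.15 in A431 tumors, and the gap junction gene GJB6 at -0.36 in A431 tumors. No source used here says how identical values arose, and their part in the level of IRF3 in tumors was not tested.

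**Figure D2:**
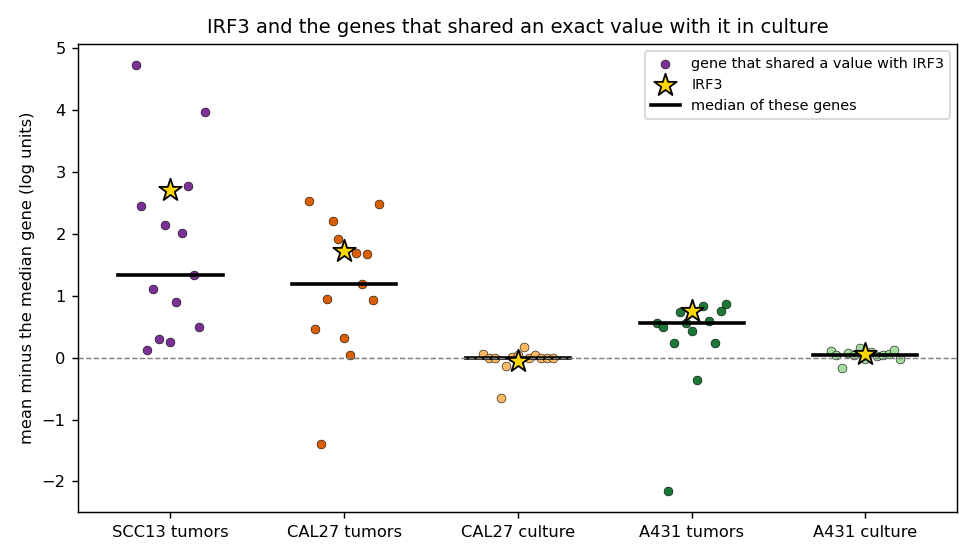
Mean log fold change minus the median gene, in log units, for IRF3 (star) and for the 13 genes that shared an exact value with it in 1 culture column (points), by group, with the median of the 13 as a line. In SCC13 tumors all 13 lie above 0 and IRF3 stands at 2.71, and the medians of the 13 in culture lie at 0.0018 and 0.04. The 13 were picked by a culture value near the median gene, so these culture medians follow from the choice.

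RFX5, the DNA-binding subunit of the MHC class II regulatory factor, differed in sign between lines. In SCC13 tumors its knockouts ran from -2.18 through 1.91 to 4.05 log units and lay above the median gene in 15 of 16 (mean 1.76 ± 1.50, SD, n = 16), with SCC13 tumor 2 the exception. In CAL27 tumors they ran from -4.51 through -0.71 to 1.52, below it in 7 of 10 (mean -0.88 ± 1.72, SD, n = 10). The CAL27 cultures stood at -0.04 and -0.25. In A431 tumors RFX5 lay below the median gene in 8 of 8 (mean -0.76 ± 0.53, SD, n = 8), and these values fell into a lower and an upper set with none between. A431 tumors 1, 2, 4 and 6 lay between -1.35 and -1.09, and A431 tumors 3, 5, 7 and 8 between -0.34 and -0.23. Both A431 cultures were above the median gene, at 0.06 and 0.13, so 8 of 8 tumors lay below both. On the deposited scale RFX5 averaged 0.14 ± 1.47 in SCC13 tumors, -1.70 ± 1.69 in CAL27 tumors and -1.03 ± 0.52 in A431 tumors, and 11 of 16, 2 of 10 and 0 of 8 tumors lay above the non-targeting guides. The SCC13 mean thus lay within its SD of the non-targeting guides and 1.76 above the median gene.

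RELA, the activating subunit of NF-kB, had means below the median gene in CAL27 and A431 cells in both settings and above it in SCC13 tumors. In CAL27 tumors it ran from -2.77 through -1.04 to 1.26 log units, below the median gene in 6 of 10 (mean -0.74 ± 1.27, SD, n = 10). The CAL27 cultures stood at -0.67 and -1.10, the 39th lowest mean of 327 and within the range of the tumors. In A431 tumors RELA ran from -1.48 through -0.88 to 0.03, below in 7 of 8 (mean -0.85 ± 0.56, SD, n = 8), and the A431 cultures stood at -0.14 and -0.47. In SCC13 tumors it ran from -2.02 through 0.26 to 3.70 and lay below in 6 of 16 (mean 0.56 ± 1.77, SD, n = 16). SCC13 tumors 9, 10 and 11, among the 5 with the highest IRF3 values, held its 3 lowest values, between -2.02 and -1.62. SCC13 tumors 2 and 7, also among those 5, stood above the median gene in RELA, at 0.38 and 2.04. Relative to the non-targeting guides RELA averaged -1.05 ± 1.68 in SCC13 tumors, with 13 of 16 below 0, so the sign of its SCC13 mean depends on the zero point.

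IFITM3, the interferon-induced restriction factor, had a mean below the median gene in each setting. In SCC13 tumors it ran from -5.16 through -1.78 to 2.34 log units, below the median gene in 13 of 16 (mean -1.54 ± 1.82, SD, n = 16). In CAL27 tumors it ran from -4.27 through -2.06 to -0.16, below in 10 of 10 (mean -1.95 ± 1.24, SD, n = 10), and the CAL27 cultures stood at -0.27 and -0.90. In A431 tumors it ran from -3.21 through -0.34 to 0.50, below in 6 of 8 (mean -0.61 ± 1.19, SD, n = 8), with the lowest value in A431 tumor 6. Without A431 tumor 6 the mean was -0.24. The A431 cultures stood at -0.87 and -0.93, the 30th lowest mean of 327, and 6 of 8 A431 tumors lay above both. In SCC13 tumors 9 of the 16 IFITM3 values were at a floor, meaning that IFITM3 and at least 3 other genes differed between a pair of tumors by an amount equal to 6 decimals. The rule does not ask that a value be low, and IFITM3 in SCC13 tumor 7 met it at -0.19. Where such a value is low it may be a bound on the loss, which was not tested. Between 8 and 145 genes per SCC13 tumor were at it, and of the 5 members IFITM3 was the one with values there.

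**Figure D3:**
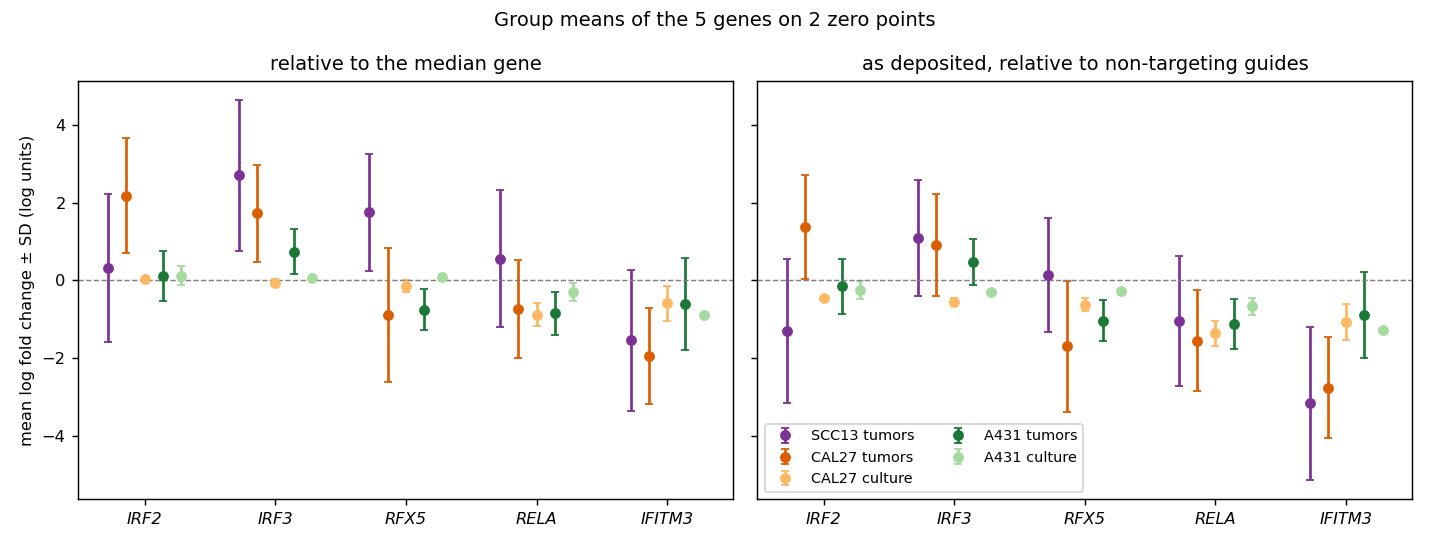
Mean ± SD of the log fold change against initial cells, in log units, for the 5 genes in the 5 groups, relative to the median gene of each column (left) and as deposited, relative to the non-targeting guides (right). On the deposited scale the mean of RFX5 in SCC13 tumors lies at 0.14 and that of RELA at -1.05, and IRF3 keeps positive means in tumors of each line (1.09, 0.91 and 0.47).

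Tumors were set directly against culture to ask whether the effect of these knockouts differed between an immunodeficient host and culture. Tumors were taken after about 2 months and cultures after 3 weeks, and each group had its own initial samples. Host, growth time and initial samples cannot be told apart in these differences. The signs differed between genes: the difference was positive for IRF2 and IRF3 in CAL27 and for IRF3 in A431, and negative for IFITM3 and RFX5 in CAL27 and for RFX5 in A431. In CAL27 the tumors minus culture difference was 2.15 log units for IRF2 (SE 0.95, 95% confidence interval 0.16 to 4.14, 9 of 10 tumors above both cultures), and the limma adjusted p was 0.48. It was 1.79 for IRF3 (SE 0.86, interval -0.00043 to 3.58, 9 of 10 tumors above both cultures, limma adjusted p = 0.52). It was -1.36 for IFITM3 (SE 0.86, interval -3.15 to 0.43, 8 of 10 below both cultures, limma adjusted p = 0.73), -0.74 for RFX5 (interval -2.95 to 1.46) and 0.14 for RELA (interval -1.67 to 1.95). In A431 it was -0.85 for RFX5 (SE 0.43, interval -1.76 to 0.06, 8 of 8 tumors below both cultures, limma adjusted p = 0.81) and 0.68 for IRF3 (SE 0.44, interval -0.27 to 1.63, 7 of 8 above both cultures, limma adjusted p = 0.89). For RELA it was -0.55 (interval -1.49 to 0.40), for IFITM3 0.29 (interval -1.26 to 1.84) and for IRF2 -0.0061 (interval -1.03 to 1.02).

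With 1 spread per gene for tumors and cultures, 0 of the 5 members and 0% of the 327 genes were called by limma in either line. In this fit 30 genes in CAL27, IRF2 among them, and 20 in A431 had an unadjusted p under 0.05. By chance alone a share of about 0.05 of the 327 genes would have one. On simulated data this fit recovered 10% of changes of 2 log units in CAL27 and 75% in A431. The lack of calls in CAL27 therefore cannot show that differences of this size are absent. In A431 the largest member difference was -0.85, for RFX5, smaller in size than 2 log units. No recovery is given here for changes that small, so the lack of calls in A431 cannot show their absence either. The tumors varied more than the cultures, and with 1 variance per group of columns the limma adjusted p in CAL27 was 0.0012 for IRF2, 0.0022 for IRF3 and 0.022 for IFITM3. In A431 it was 0.043 for RFX5 and 0.10 for IRF3. With 1 spread but each column divided by its median absolute deviation, the CAL27 difference turned for IFITM3 (1.06 in units of that deviation, limma adjusted p = 0.46) and passed for RELA (3.71, limma adjusted p = 0.0068). With 1 variance per group, 16.5% of all genes were called higher and 14.4% lower in CAL27 tumors, and 4.28% and 3.36% in A431 tumors. No share over all genes is given here for the columns divided by their median absolute deviation. Only 2 cultures stand behind each line, and with either culture left out the adjusted p of each of these members was 0.98 to 1.00 with 1 spread, in a fit where the lone culture is taken to vary like the tumors. Whether CAL27 and A431 differed in the tumor minus culture difference was tested as an interaction. For IRF2 the 2 lines differed by 2.16 log units (SE 1.15, interval -0.20 to 4.52, limma adjusted p = 1.00 with 1 spread and 0.0074 with 1 variance per group), and the other 4 members passed in neither fit. With 1 variance per group 6.12% of all genes were called higher and 7.03% lower in the interaction. On simulated data the interaction fit with 1 spread recovered 0% of changes of 2 log units.

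**Figure D4:**
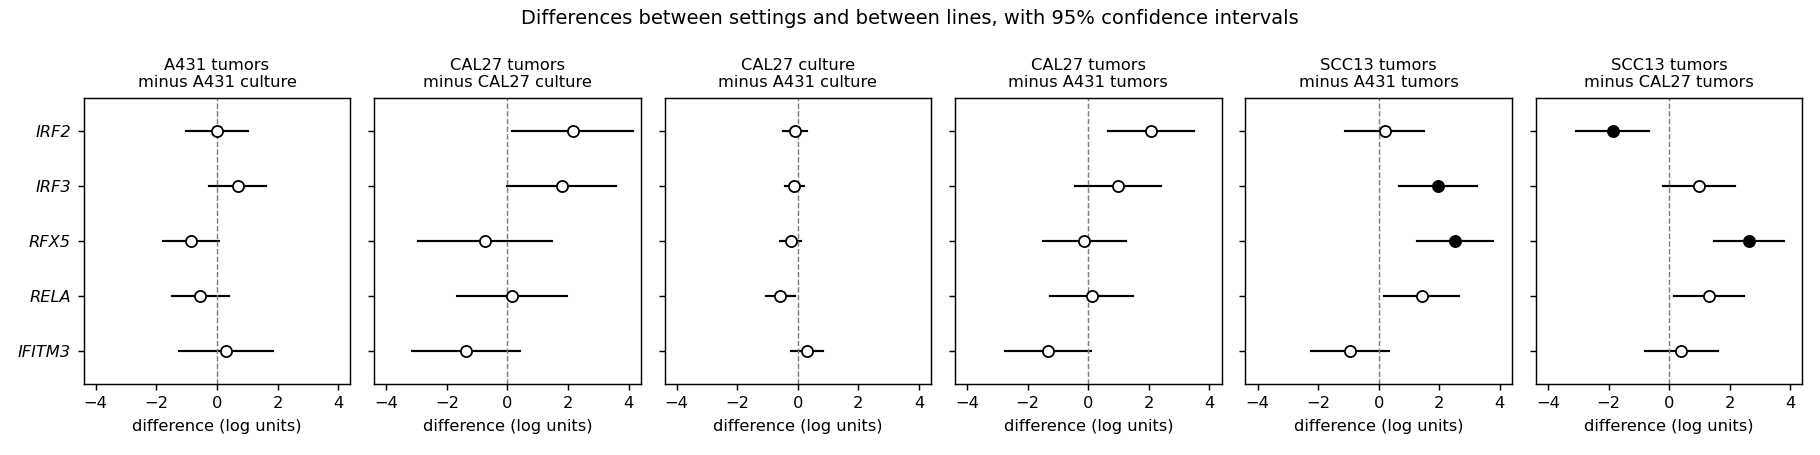
Differences between group means in log units (points) with 95% confidence intervals from the limma fits (lines), for 6 comparisons. Filled points passed an adjusted p under 0.05 over all 327 genes: IRF3 (1.96) and RFX5 (2.52) in SCC13 minus A431 tumors, and IRF2 (-1.87) and RFX5 (2.64) in SCC13 minus CAL27 tumors.

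Between lines, RFX5 had a higher mean in SCC13 tumors than in those of both other lines. It was higher in SCC13 than in CAL27 tumors by 2.64 log units (SE 0.58, interval 1.49 to 3.80, limma adjusted p = 0.000581), and 10 of 16 SCC13 tumors lay above all 10 CAL27 tumors. It was higher in SCC13 than in A431 tumors by 2.52 (SE 0.62, interval 1.27 to 3.76, limma adjusted p = 0.00295), and 15 of 16 SCC13 tumors lay above all 8 A431 tumors. Without SCC13 tumor 3 the differences were 2.72 and 2.60. On the deposited scale they were 1.84 (limma adjusted p = 0.018) and 1.17 (limma adjusted p = 0.13), so the second did not pass. CAL27 and A431 tumors differed in RFX5 by -0.13 (interval -1.49 to 1.23), and the cultures of CAL27 and A431 by -0.24 (interval -0.57 to 0.10). The floor described for IFITM3 limits every comparison with SCC13. Between 8 and 145 genes per SCC13 tumor were at it, against 0 to 16 per CAL27 tumor and 0 in A431 tumors. Whether this moved the median gene, and with it the SCC13 differences, was not tested.

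IRF2 was lower in SCC13 than in CAL27 tumors, with a difference of -1.87 log units (SE 0.61, interval -3.08 to -0.65, limma adjusted p = 0.023), and 6 of 16 SCC13 tumors lay below all CAL27 tumors. Without SCC13 tumor 3 the difference was -1.77 (limma adjusted p = 0.031). Without CAL27 tumor 6 it was -1.60 and without CAL27 tumor 7 -1.66, and the limma adjusted p was 0.066 and 0.058. CAL27 tumors stood 2.07 above A431 tumors in IRF2 (SE 0.72, interval 0.64 to 3.49, limma adjusted p = 0.081), with 8 of 10 CAL27 tumors above all A431 tumors. This passed with 1 variance per group (limma adjusted p = 0.000768, where 8.56% of all genes were called higher and 14.7% lower), on the scale divided by each column's median absolute deviation (0.016) and without CAL27 tumor 9 (0.043). In culture CAL27 and A431 differed in IRF2 by -0.10 (interval -0.48 to 0.29).

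IRF3 was higher in SCC13 than in A431 tumors by 1.96 log units (SE 0.64, interval 0.68 to 3.25, limma adjusted p = 0.023), and 13 of 16 SCC13 tumors lay above all A431 tumors. Without SCC13 tumor 3 it was 2.20 (limma adjusted p = 0.0073). The call was lost on the deposited scale (0.62, limma adjusted p = 0.42), on the scale divided by each column's median absolute deviation (0.28, adjusted p = 0.79) and without A431 tumor 5 (1.85, adjusted p = 0.051). IRF3 differed by 0.98 both between SCC13 and CAL27 tumors (interval -0.21 to 2.18, limma adjusted p = 0.26, and -0.34 on the scale divided by the median absolute deviation) and between CAL27 and A431 tumors (interval -0.43 to 2.39, limma adjusted p = 0.52). RELA stood 1.30 higher in SCC13 than in CAL27 tumors (interval 0.14 to 2.46, limma adjusted p = 0.11) and 1.41 higher than in A431 tumors (interval 0.17 to 2.66, limma adjusted p = 0.11), and neither passed. Against A431 it passed with 1 variance per group (limma adjusted p = 0.034) and on the scale divided by the median absolute deviation (limma adjusted p = 0.0056), and on the deposited scale the difference was 0.07. In culture the RELA difference between CAL27 and A431 was -0.58 (interval -1.06 to -0.10, limma adjusted p = 0.17). IFITM3 differed by -1.34 between CAL27 and A431 tumors (interval -2.75 to 0.07), by -0.93 between SCC13 and A431 tumors (interval -2.22 to 0.35) and by 0.40 between SCC13 and CAL27 tumors (interval -0.80 to 1.60), and none of these passed, although the first did with 1 variance per group (limma adjusted p = 0.042) and the second on the deposited scale (-2.28, limma adjusted p = 0.0072). Over all genes the median difference between SCC13 and CAL27 tumors was 0.17, and the member differences are to be read relative to it. Of the 327 genes, 9.79% were higher and 7.95% lower in SCC13 than in CAL27 tumors, 10.4% and 10.7% in SCC13 than in A431 tumors, 0.306% and 3.06% in CAL27 than in A431 tumors, and 0.306% and 2.75% in CAL27 than in A431 culture, against 2, 2, 0 and 0 of the 5 members called in either direction. With 1 variance per group the percentages for SCC13 were 10.1% higher and 7.95% lower than in CAL27 tumors, and 15.3% and 12.5% than in A431 tumors.

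Of 104 listed genes of interferon signalling, antigen presentation and NF-kB, 2 were measured besides the members, RELB and TNFRSF12A. RELB, the NF-kB subunit of the non-canonical pathway, stood at 0.37 ± 1.69 log units in SCC13 tumors, 0.26 ± 0.78 in CAL27 tumors and 0.25 ± 0.67 in A431 tumors (SD, n = 16, 10 and 8), and at -0.09 and -0.18 on average in CAL27 and A431 culture. It was called in none of the 5 groups. TNFRSF12A, a receptor of the tumor necrosis factor family that signals to NF-kB, stood at 1.88 ± 1.39 in SCC13 tumors (16 of 16 above the median gene), -0.16 ± 0.37 in CAL27 tumors and -0.08 ± 0.20 in A431 tumors. It was higher in SCC13 than in CAL27 tumors by 2.04 (SE 0.51, limma adjusted p = 0.00291) and than in A431 tumors by 1.96 (SE 0.55, limma adjusted p = 0.00907). On the deposited scale, added after the data were seen, neither difference passed (1.23 against CAL27 tumors, limma adjusted p = 0.077, and 0.62 against A431 tumors, limma adjusted p = 0.39). There TNFRSF12A averaged 0.26 ± 1.40 in SCC13 tumors, with 10 of 16 below the non-targeting guides, -0.97 ± 0.34 in CAL27 tumors and -0.36 ± 0.26 in A431 tumors. Columns divided by their median absolute deviation were also added after the data were seen, and both differences passed there. In units of that deviation they were 1.37 against CAL27 tumors (limma adjusted p = 0.0037) and 1.33 against A431 tumors (limma adjusted p = 0.012). NFYB and CREB1, whose products bind MHC class II promoters beside RFX5, and PML, an interferon-induced nuclear body protein, were added after the gene names of the tables had been read. NFYB averaged -0.98 ± 1.72 in SCC13, -0.65 ± 1.15 in CAL27 and 0.07 ± 0.83 in A431 tumors. CREB1 averaged 0.87 ± 2.02, -0.04 ± 1.02 and 0.12 ± 0.99 in these groups, and PML -0.75 ± 1.26, -0.45 ± 0.84 and -0.61 ± 0.98. None of the 3 was called in any of the 5 groups, and none differed between the tumors of any pair of lines at an adjusted p under 0.05 on the centred scale. In SCC13 tumors 12 of 16 NFYB values met the rule for the floor, among them a value of 1.57 in SCC13 tumor 3.

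Likeness of pattern was measured as Spearman's rho over the 38 tumors and cultures, each column divided by its median absolute deviation. All columns of 1 table were set against the same initial cells, so these values are a description. IFITM3 was most like GNB2L1, a scaffold protein of the ribosome (0.76), the AP-1 factor FOSL1 (0.74) and the replication factor GINS2 (0.70), and after the group means were removed the values were 0.63, 0.51 and 0.49. RFX5 was most like FERMT1, an integrin activator gene (0.69), TNFRSF12A (0.66) and CDKN2B, a cyclin-dependent kinase inhibitor (0.62), and without the group means these were 0.23, 0.24 and 0.13. RELA was most like the condensin subunit SMC4 (0.60), RFX5 (0.58) and TNFRSF12A (0.57), and without the group means these were 0.28, 0.30 and -0.04. IRF3 was most like RELB (0.51), the glucose transporter SLC2A1 (0.44) and CREB1 (0.44), and without the group means these were 0.38, 0.44 and 0.35. IRF2 was most like the histone gene HIST1H1A (0.50), the galectin LGALS7B (0.50) and SBSN (0.49), and without the group means these were 0.15, 0.15 and 0.25. Among the members, RFX5 and RELA were the pair most alike, and IRF2 and IRF3 had a rho of 0.095.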

How the data were processed

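Guide RNAs were sequenced from genomic DNA of tumors, cultures and initial cells, and Bowtie2 was used per the submitters' processing notes, its version not being given in the sources used here. Deposited by the authors were 5 headerless tables of log fold changes per gene (other values, of unstated log base), in which the non-targeting row is 0. No source used here gives the pseudocount, guide summary, filters or build. Columns were matched to groups by table, not to single samples. The 5 members and all gene lists were chosen with earlier results of these data known. Genes named are the members, the listed genes measured, and the 3 genes most like each member. NFYB, CREB1 and PML were added after the gene names had been read.

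Each column was centred on its median over 327 genes. Group means were compared with limma 3.58.1 in R 4.3.3 (lmFit, contrasts and eBayes) on whole tables, in 1 fit for the tumors and cultures of a line, 1 for the tumors of the 3 lines, 1 for the cultures and 1 for the interaction, with Benjamini-Hochberg adjustment over 327 genes at 0.05. These fits assume that the tables share a log base and guide summary. The error of the initial cells is in no test. Nothing says that columns came from separate cultures or mice, so p-values measure the spread between these columns only, which may be technical. The fits with 1 spread were tested on simulated data, with 20 genes per comparison changed by 2 log units. In the same simulated data other genes were changed by smaller and by larger amounts. Of the changes by 2 log units the fits recovered 10% in CAL27 tumors minus culture, 75% in A431 tumors minus culture and 0% in the interaction. Recovery was 55% in CAL27 minus A431 tumors and in SCC13 minus A431 tumors. It was 85% in SCC13 minus CAL27 tumors and 100% between the cultures. Alternatives were the deposited zero point, columns divided by their median absolute deviation, 1 variance per group (arrayWeights), robust eBayes, shared values set to missing, and each column left out.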

Additional observations from a re-analysis of the deposited data

Results flagged for a closer look

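In A431 tumors the lowest IFITM3 value, -3.21 log units in tumor 6, lay apart from the other 7 tumors: its gap to the nearest tumor was 0.53 of the whole range. Chance gives such a gap in about 1 in 20 groups, and 10 sets of values, the 5 members in CAL27 and in A431 tumors, were looked at. The effect of a knockout in tumors differed between lines, by a limma test of the difference, for RFX5 (2.64 log units between SCC13 and CAL27 tumors and 2.52 between SCC13 and A431 tumors), IRF3 (1.96 between SCC13 and A431 tumors) and IRF2 (-1.87 between SCC13 and CAL27 tumors). For RFX5, all 8 A431 tumors lay below the median gene and 15 of 16 SCC13 tumors above it. The SCC13 tumors grew in another mouse strain than those of the other lines, and line and host cannot be told apart. The genes were picked with earlier results of the same tables known, so these tests are not independent of that choice.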

How the results depend on the processing

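RFX5 was higher in SCC13 than in CAL27 tumors in 30 of 30 alternatives (1.84 to 2.91 log units, adjusted p 7.7e-05 to 0.018), and than in A431 tumors past the threshold in 27 of 28 (1.17 to 2.78, adjusted p 0.00031 to 0.13). IRF2 was lower in SCC13 than in CAL27 tumors past the threshold in 28 of 30 (-2.67 to -1.60, adjusted p 0.000843 to 0.066), and IRF3 was higher in SCC13 than in A431 tumors in 25 of 28 (0.28 to 2.20, adjusted p 0.0034 to 0.79). Most alternatives were refits with 1 column left out, 26 of the 30 and 24 of the 28, so these counts say little about the scale. On the deposited scale RFX5 and IRF3 did not pass against A431 tumors (limma adjusted p = 0.13 and 0.42). On the scale divided by the median absolute deviation IRF3 did not pass (0.79) and RFX5 did. Against CAL27 tumors RFX5 and IRF2 passed on both scales. These ranges include the scale divided by the median absolute deviation, whose unit is not the log unit. The cause of the losses was not tested.

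The number of members called moved as follows. With 1 variance per group it was 3 in place of 2 in SCC13 minus A431 tumors, 1 in A431 tumors minus culture, 3 in CAL27 tumors minus culture, 2 in CAL27 minus A431 tumors and 1 in the interaction, against 0 with 1 spread in the last 4. On columns divided by their median absolute deviation it was 1 in CAL27 tumors minus culture (RELA, higher) and 1 in CAL27 minus A431 tumors (IRF2). In SCC13 minus A431 tumors that scale called RFX5 and RELA in place of RFX5 and IRF3. On the deposited scale SCC13 minus A431 tumors held 1 call, IFITM3 at -2.28, in place of 2. Against initial cells that scale gave 4 in place of 3 in SCC13 tumors and in CAL27 tumors, 5 in place of 1 in CAL27 culture, 2 in place of 3 in A431 tumors and 2 in place of 1 in A431 culture. In CAL27 culture the median gene itself lay at -0.47 and -0.49 on the deposited scale. No share over all genes is given for the deposited scale or the divided columns, so nothing is read from these counts. With 1 column left out, the number was 0 to 1 in CAL27 minus A431 tumors, 1 to 2 in SCC13 minus A431 and in SCC13 minus CAL27 tumors, and, against initial cells, 3 to 4 in CAL27 tumors and 1 to 3 in A431 tumors. TNFRSF12A on both other scales was added after the data were seen.

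These differences, none of them called before or after, changed sign. On the deposited scale IRF2 in A431 tumors minus culture was 0.083, RELA in CAL27 tumors minus culture -0.19, RELA in CAL27 minus A431 tumors -0.43, IRF2 in SCC13 minus A431 tumors -1.15, IFITM3 in SCC13 minus CAL27 tumors -0.40 and RFX5 in the interaction -0.31. On the scale divided by the median absolute deviation, in units of it, IFITM3 in CAL27 tumors minus culture was 1.06 against -1.36 log units on the centred scale, RFX5 in CAL27 minus A431 tumors 0.40, IRF2 in SCC13 minus A431 tumors -0.11 and IRF3 in SCC13 minus CAL27 tumors -0.34 against 0.98. With 1 column left out the range was -0.18 to 0.16 for IRF2 in A431 tumors minus culture, -0.079 to 0.37 for RELA in CAL27 tumors minus culture, -0.39 to 0.28 for RFX5 and -0.11 to 0.34 for RELA in CAL27 minus A431 tumors, -0.069 to 0.46 for IRF2 in SCC13 minus A431 tumors, -0.27 to 0.075 for IRF2 and -0.0042 to 0.63 for IFITM3 in CAL27 minus A431 culture, and -0.16 to 0.51 for RFX5 in the interaction.

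No paired analysis was possible because the value columns carry no replicate numbers. Depth is unknown, and 2 cultures per line limit the comparisons with culture.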
